A study of Mus musculus with 12 samples.

Results

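Expression of 33 genes of cholesterol synthesis, uptake and efflux was examined in 3T3-L1 adipocytes whose Dnmt3a was raised or lowered. The genes were taken by name from a pathway list, with no measured value in the rule, though the list was chosen with earlier results of these data known. All 33 were found among 26341 gene symbols in the count table, and where a symbol stood on several features the feature with the highest mean count was used. Sorted by role they are 7 enzymes from acetoacetyl-CoA to farnesyl diphosphate, 3 that make squalene and lanosterol, 9 that turn lanosterol into cholesterol, Ggps1 on the geranylgeranyl branch, 4 genes of SREBP-2 control, 5 of uptake control and intracellular transport, the esterifying enzyme Soat1 and 3 genes of efflux. The low-count filter kept 32 of the 33 in both main comparisons.

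3T3-L1 is a mouse fibroblast line that forms lipid-filled adipocytes in culture when given dexamethasone, IBMX and insulin, here at 1 µM, 0.5 mM and 5 µg/ml. On day 8 the mature adipocytes received lentivirus, and RNA was taken 4 days after transduction. There were 12 libraries, 3 for each construct: Dnmt3a expressed from the vector pCDH (labelled Dnmt3a_pCDH, here Dnmt3a), its control GFP in the same vector (GFP_pCDH, here GFP), a short hairpin against Dnmt3a (shDnmt3a) and its control, a scrambled hairpin (labelled scramble, here shScr). All groups are of this 1 line, a culture model without the other cells of adipose tissue. The sources do not say which of the study's Dnmt3a hairpins these libraries carry, and the GFP and shScr controls differ in vector as well as insert. The series calls the libraries biological triplicates but does not say that they came from separate cultures, so the p-values measure the spread between these 3 libraries of a group. Depth ranged between 29084732 and 47341091 counts per library.

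Cholesterol is built in the endoplasmic reticulum, first as isoprenoid units from acetyl-CoA, then as squalene, lanosterol and a chain of sterols that ends in cholesterol. The transcription factor SREBP-2, encoded by Srebf2, drives most of these enzymes when membrane cholesterol is low: Scap escorts it to the Golgi for cleavage, and Insig1 and Insig2 hold Scap back when sterols are plentiful. Cells also take up cholesterol as lipoprotein, release it from lysosomes through NPC2 and NPC1, store it as cholesteryl ester and export it through ABCA1 and ABCG1, which LXR receptors switch on when oxysterols are present. Adipocytes keep much of the body's free cholesterol at the surface of their lipid droplet. DNMT3A, a DNA methyltransferase, places methyl groups on cytosine, mainly at CpG; no DNA methylation was measured in these libraries.

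The targeted gene followed the labels. Dnmt3a had 2735, 2790 and 2743 CPM in Dnmt3a libraries, against 92.8, 90.3 and 96.8 CPM in GFP libraries. It had 40.8, 39.3 and 39.4 CPM in shDnmt3a libraries, against 81.3, 86.5 and 78.8 CPM in shScr libraries. CPM are counts relative to library size, scaled by edgeR's TMM factors over all 12 libraries. Neither pair of groups overlapped, and the log2 fold changes were 4.88 ± 0.041 for Dnmt3a over GFP and −1.04 ± 0.046 for shDnmt3a over shScr (± standard error). Adipocyte markers were abundant: the 9 listed, among them Adipoq, Fabp4 and Plin1, summed to between 17336 and 27541 CPM per library. The 6 macrophage genes summed to between 9.20 and 15.8 CPM per library, most of it Cd68 and Cd14, with Emr1 at 0 in every library.

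Levels of the cholesterol genes differed widely per length, as the plot of RPKM by gene shows. RPKM here are CPM divided by the feature length in kilobases. Farnesyl diphosphate synthase (Fdps) averaged 444 RPKM over the 12 libraries and Insig1 436 RPKM, followed by the lysosomal sterol carrier Npc2 at 185 and the methylsterol oxidase Sc4mol (now Msmo1) at 170. Apoe, an apolipoprotein that carries cholesterol out of cells, was the lowest of the members tested at 2.93 RPKM. The pair of enzymes that can each reduce the C14 double bond of the sterol ring stood low, Tm7sf2 at 13.4 and the lamin B receptor Lbr at 9.46 RPKM, and of the efflux transporters Abca1 stood at 82.6 and Abcg1 at 15.2 RPKM. Hmgcs1, the cytosolic HMG-CoA synthase, was the member that could not be tested. Its symbol stood on 2 features of the same length, 4229 bases, which held 2 counts and 1 count over all 12 libraries, so the table gives no level for this enzyme and says nothing of whether the cells expressed it.

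**Figure D1:**
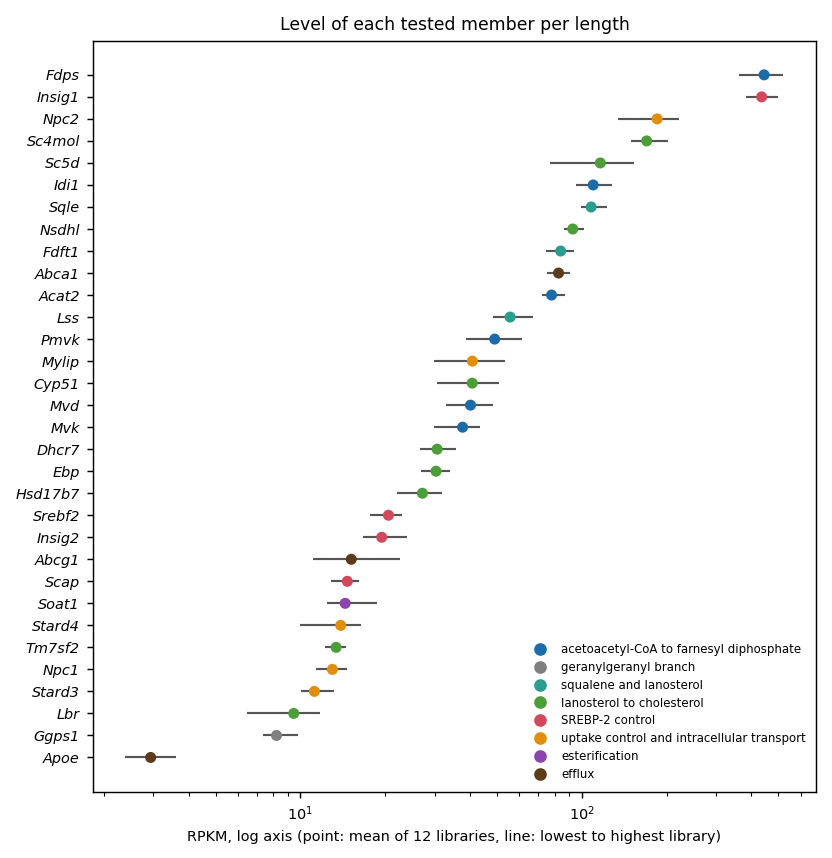
Level of each of the 32 tested members in RPKM on a log axis. Points are means of the 12 libraries, lines run between the lowest and the highest library, and colours give the role. Fdps and Insig1 stand highest at 444 and 436 RPKM, Apoe lowest at 2.93 RPKM.

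Promoters are shown for 6 members that stand for the patterns of response: Sc5d, Cyp51 and Npc2 were higher with Dnmt3a and lower with shDnmt3a, Insig1 was called only with Dnmt3a, Soat1 only with shDnmt3a, and Lbr was higher in both. Each sequence is the 200 bases before the RefSeq start of the gene on build GRCm38.p6, read 5′ to 3′ on the strand of the gene. Capitals mark a CCAAT box (CCAAT, or ATTGG on the other strand), a GC box (GGGCGG or CCGCCC) or an E-box (CACGTG, its own reverse complement); no 2 of them overlap in these windows.
Sc5d, chr9:42264301-42264500, minus strand: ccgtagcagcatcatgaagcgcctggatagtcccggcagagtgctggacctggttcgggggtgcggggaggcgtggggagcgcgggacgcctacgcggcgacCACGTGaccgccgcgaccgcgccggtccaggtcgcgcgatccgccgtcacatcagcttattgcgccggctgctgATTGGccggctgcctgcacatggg
Cyp51, chr5:4104698-4104897, minus strand: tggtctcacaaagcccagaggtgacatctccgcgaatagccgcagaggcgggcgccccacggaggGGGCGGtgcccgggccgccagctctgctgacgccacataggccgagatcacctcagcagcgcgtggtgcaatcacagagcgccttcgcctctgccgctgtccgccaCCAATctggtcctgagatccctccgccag
Npc2, chr12:84773113-84773312, minus strand: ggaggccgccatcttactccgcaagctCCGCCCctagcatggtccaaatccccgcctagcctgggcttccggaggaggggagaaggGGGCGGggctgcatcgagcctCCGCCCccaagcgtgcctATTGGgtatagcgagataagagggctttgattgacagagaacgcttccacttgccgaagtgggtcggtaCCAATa
Insig1, chr5:28071212-28071411, plus strand: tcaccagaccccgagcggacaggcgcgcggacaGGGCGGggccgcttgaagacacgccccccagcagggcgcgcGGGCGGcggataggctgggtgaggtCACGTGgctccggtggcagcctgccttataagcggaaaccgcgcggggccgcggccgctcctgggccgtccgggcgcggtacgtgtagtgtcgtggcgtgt
Lbr, chr1:181842402-181842601, minus strand: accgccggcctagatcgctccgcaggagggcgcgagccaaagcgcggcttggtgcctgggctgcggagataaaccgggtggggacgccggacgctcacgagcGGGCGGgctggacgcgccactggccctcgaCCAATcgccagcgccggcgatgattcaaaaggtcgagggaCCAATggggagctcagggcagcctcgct
Soat1, chr1:156474329-156474528, minus strand: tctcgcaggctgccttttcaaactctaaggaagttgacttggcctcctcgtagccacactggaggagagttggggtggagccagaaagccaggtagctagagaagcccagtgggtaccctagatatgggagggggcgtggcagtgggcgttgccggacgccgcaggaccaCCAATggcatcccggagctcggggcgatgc
The CCAAT box lay 20 to 24 bases before the start in Sc5d, 25 to 29 in Cyp51, 26 to 30 in Soat1, and at 2 places each in Npc2 and Lbr. Insig1 had an E-box 96 to 101 bases before its start and Sc5d one at 93 to 98. Over the 27 members with a RefSeq promoter entry (300 bases, 50 of them after the start), 23 held CCAAT on either strand in at least 1 listed promoter, which is 85.2%, and 15 of the 16 synthesis enzymes did (93.8%); the share was 43.1% for 9042 genes tested in Dnmt3a over GFP that had an entry, and 41.1% for all 27025 genes with one. GGGCGG stood in 88.9% of the 27 members, against 66% of the tested genes, and CACGTG in 22.2%, against 11.5%. The sterol response element searched, TCACNCCAC on either strand, was present in 2 members, Hmgcs1 and Stard3 (7.41%, against 1.45% of tested genes), and no match in such a window says only that these letters are not there. Taking for each gene the listed promoter with the most CpG, the members held a median of 23 CpG in the 300 bases, against 21 for the tested genes. Such matches describe the sequence and were not tested as binding sites. Fdps, Fdft1, Sqle, Npc1, Stard4 and Abcg1 had no entry.

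Dnmt3a overexpression was compared with GFP to see what added Dnmt3a did to these genes. Nearly the whole synthesis chain was higher with Dnmt3a, each enzyme by a small amount: 17 of the 18 tested synthesis enzymes were higher, with log2 fold changes between 0.11 for Mvk and 0.35 for Sc5d, and Hsd17b7 was not called at 0.073 ± 0.042. Summed over the 18 enzymes the level was 4977 ± 42.4 CPM in Dnmt3a libraries and 4222 ± 67.4 CPM in GFP libraries (mean ± SD, n = 3 each). Outside the chain 4 of 14 members were higher (Insig1, Npc2, Mylip and Abcg1), Scap was lower and 9 were not called. A gene counts as called at an adjusted p under 0.05 in the quasi-likelihood test of edgeR, corrected by the Benjamini-Hochberg method over all 14168 genes tested, which is what edgeR adjusted p means here. In all, 22 of the 32 members were called, 21 higher and 1 lower, where 27.2% of all genes were called, 14.3% higher and 12.9% lower. The groups did not overlap for 24 members, 22 higher and 2 lower, against 39.6% of all genes, 20.4% higher and 19.2% lower. Among the 7173 genes of at least 20 mean CPM, a subset looked at after the results were seen, 23.1% were higher and 14.9% lower. Values written with ± after a gene are log2 fold changes and their standard errors. The members' median log2 fold change was 0.15, against −0.0066 over all genes tested. All 18 synthesis enzymes had a positive fold change. The signs alone thus fixed that none was lower at an unadjusted p under 0.05 in edgeR. DESeq2, run on the same counts, called 0 lower as well, which is no separate support.

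Several other measures moved with the Dnmt3a libraries. All 9 adipocyte markers were higher, their sum 27432 to 27541 CPM in Dnmt3a libraries and 21684 to 22840 CPM in GFP libraries. Of 6 genes of dividing cells 5 were lower, their sum 46.2 to 47.3 CPM in Dnmt3a libraries and 71.7 to 72.8 CPM in GFP libraries. Of 8 preadipocyte or fibroblast markers 1 was higher and 3 were lower, and all 4 measured RNAs of a list that follows RNA isolation and rRNA removal (Lars2, Rpph1, Rmrp and Rprl3) were higher, Lars2 with groups that overlapped. Of the macrophage genes 1 of the 4 tested was higher, the sum of all 6 being 14.2 to 15.8 CPM in Dnmt3a libraries and 12.6 to 13.0 CPM in GFP libraries. Their part in the change of the cholesterol genes was not tested, and in such bulk libraries fewer cells of a type and less RNA per cell cannot be told apart.

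Knock-down of Dnmt3a was compared with the scrambled hairpin to see what a partial lowering of Dnmt3a did to the same genes. Lower calls lay mostly among the synthesis enzymes and higher calls mostly outside them. Of the 18 synthesis enzymes 8 were lower with shDnmt3a (Mvk, Pmvk, Mvd, Fdps, Fdft1, Cyp51, Ebp and Sc5d), Lbr was higher and 9 were not called; of the 14 members outside the chain 7 were higher (Insig2, Npc1, Stard4, Mylip, Soat1, Abca1 and Abcg1), Scap and Npc2 were lower and 5 were not called. The summed level of the 18 enzymes was 3850 ± 93.1 CPM in shDnmt3a libraries and 4280 ± 120 CPM in shScr libraries (mean ± SD, n = 3 each). In all, 18 of 32 members were called by edgeR, 8 higher and 10 lower, where 45.8% of the 14115 genes tested were called, 23.3% higher and 22.5% lower, so the share of members called, 56.2%, was little above that of all genes. The groups did not overlap for 9 members higher and 9 lower, against 52.9% of all genes, 26% higher and 26.8% lower. Among genes of at least 20 mean CPM, 28% were higher and 32.2% lower, and the share of members called was not above that of these genes. The members' median log2 fold change was −0.039, against −0.00027 over all genes, and came to −0.059 without shScr replicate 2 and −0.025 without shScr replicate 1. Of the adipocyte markers 3 were higher and 4 lower, their sum 17336 to 17821 CPM in shDnmt3a libraries and 18123 to 18744 CPM in shScr libraries. The sum of the preadipocyte or fibroblast markers, most of it Col3a1, was 12262 to 12323 CPM in shDnmt3a libraries and 8181 to 8737 CPM in shScr libraries, with 2 of the 8 higher and 4 lower. Of the RNAs that follow isolation and rRNA removal only Lars2, 1 of 4, was higher, with groups that overlapped. Of the 6 genes of dividing cells 1 was higher and 1 lower, their sum 37.3 to 40.0 CPM in shDnmt3a libraries and 35.5 to 39.8 CPM in shScr libraries. Of the 4 macrophage genes tested 1 was higher and 1 lower, the sum of all 6 being 10.232 to 10.998 CPM in shDnmt3a libraries and 9.195 to 10.102 CPM in shScr libraries. Their part in the change of the cholesterol genes was not tested.

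**Figure D2:**
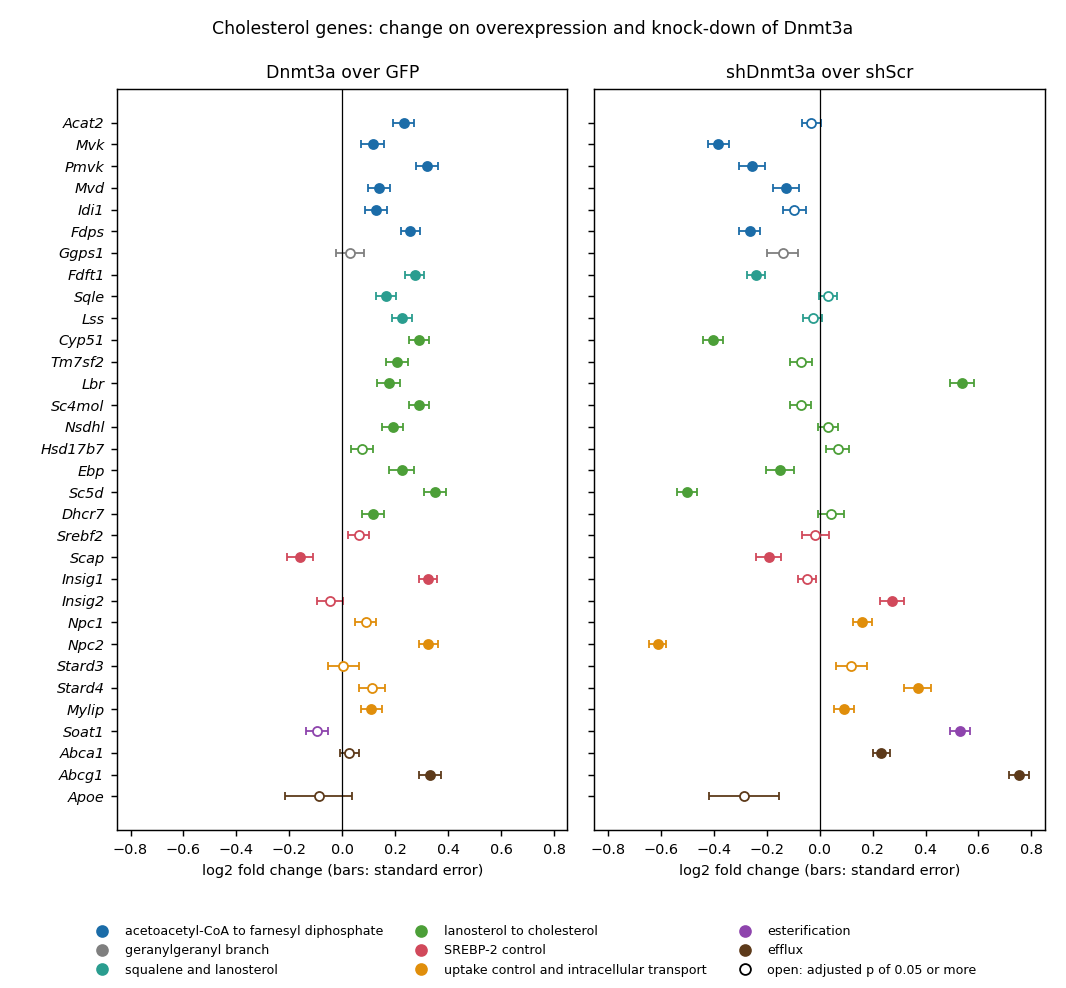
Log2 fold change of each of the 32 tested members, in order of role, for Dnmt3a over GFP (left) and shDnmt3a over shScr (right); bars are standard errors and open points have an adjusted p of 0.05 or more. On the left 17 synthesis enzymes lie to the right of 0 and are called; on the right 8 of them are called lower and Lbr is called higher.

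The early steps, from acetoacetyl-CoA to farnesyl diphosphate, gave 6 tested enzymes that were all higher with Dnmt3a, and 4 of them were lower with shDnmt3a. Mevalonate kinase (Mvk) makes phosphomevalonate. It had 111, 114 and 107 CPM in Dnmt3a libraries and 107, 96.8 and 102 CPM in GFP libraries, groups that overlapped at their edges. It had 78.8, 81.9 and 79.1 CPM in shDnmt3a libraries and 104, 102 and 108 CPM in shScr libraries, well apart. The log2 fold changes were 0.11 ± 0.042 for Dnmt3a over GFP and −0.38 ± 0.039 for shDnmt3a over shScr (edgeR adjusted p = 0.0400 and 1.23e-07). The next kinase, phosphomevalonate kinase (Pmvk), had 97.1, 105 and 102 CPM in Dnmt3a libraries and 80.1, 82.3 and 80.8 CPM in GFP libraries. With the hairpins Pmvk had 66.3, 69.0 and 71.7 CPM in shDnmt3a libraries and 81.6, 77.9 and 89.1 CPM in shScr libraries. Neither pair overlapped, and the log2 fold changes were 0.32 ± 0.041 and −0.26 ± 0.048 (edgeR adjusted p = 1.31e-07 and 0.000210). The decarboxylase Mvd, which makes isopentenyl diphosphate, had 90.1, 86.6 and 84.7 CPM in Dnmt3a libraries and 81.3, 74.9 and 80.7 CPM in GFP libraries. It had 62.9, 67.1 and 61.2 CPM in shDnmt3a libraries and 65.9, 70.0 and 74.0 CPM in shScr libraries, where 1 shDnmt3a library lay above the lowest shScr library. Its log2 fold changes were 0.14 ± 0.042 and −0.13 ± 0.049 (edgeR adjusted p = 0.0118 and 0.0409).

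Fdps, which joins the isoprenoid units to farnesyl diphosphate, had 629, 637 and 612 CPM in Dnmt3a libraries and 512, 522 and 535 CPM in GFP libraries. It had 443, 470 and 480 CPM in shDnmt3a libraries and 579, 531 and 571 CPM in shScr libraries. Groups stood apart in both comparisons, with log2 fold changes of 0.26 ± 0.036 and −0.26 ± 0.039 (edgeR adjusted p = 1.12e-06 and 1.53e-05). The acetoacetyl-CoA thiolase Acat2 and the isomerase Idi1 were higher with Dnmt3a, at 0.23 and 0.13, and were not called with shDnmt3a, at −0.031 ± 0.035 and −0.095 ± 0.044. Ggps1, which diverts farnesyl diphosphate to geranylgeranyl diphosphate, was called in neither comparison, at 0.030 ± 0.053 and −0.14 ± 0.058; its exons overlap Arid4b on the other strand in build mm9, and the strand setting of the counting is not stated. Leaving out GFP replicate 2 or 3 or Dnmt3a replicate 1 or 2 ended the call of Mvk with Dnmt3a (edgeR adjusted p = 0.0945 to 0.174), GFP replicate 2 or Dnmt3a replicate 1 that of Mvd (0.0666 and 0.0882), and GFP replicate 1 or Dnmt3a replicate 1 that of Idi1 (0.135 and 0.135). With shDnmt3a the call of Mvd was lost without shScr replicate 2 or 3 or shDnmt3a replicate 1 or 3 (edgeR adjusted p = 0.0762 to 0.190), while Idi1 was called lower without shScr replicate 3 (0.0185) and Ggps1 without shScr replicate 3 or shDnmt3a replicate 3 (0.0147 and 0.0487). DESeq2 called neither Mvk with Dnmt3a (adjusted p = 0.0558) nor Mvd with shDnmt3a (0.0520). With shDnmt3a, edgeR called Idi1 lower with no filter on low counts (adjusted p = 0.0243), and Ggps1 with no filter (0.0283) and in the fit of all 12 libraries (0.0315).

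The 3 enzymes that make squalene and lanosterol were all higher with Dnmt3a, and 1 was lower with shDnmt3a. Squalene synthase (Fdft1) commits farnesyl diphosphate to sterols. Fdft1 had 790, 764 and 782 CPM in Dnmt3a libraries and 651, 632 and 648 CPM in GFP libraries. It had 629, 648 and 664 CPM in shDnmt3a libraries and 787, 759 and 757 CPM in shScr libraries. The groups were well apart both times, at 0.27 ± 0.035 and −0.24 ± 0.033 (edgeR adjusted p = 2.01e-07 and 7.04e-06). Squalene epoxidase (Sqle), a slow step of the pathway, had 337, 327 and 329 CPM in Dnmt3a libraries and 296, 294 and 296 CPM in GFP libraries. With the hairpins Sqle had 276, 284 and 287 CPM in shDnmt3a libraries and 273, 276 and 283 CPM in shScr libraries, which overlapped. Its log2 fold changes were 0.16 ± 0.037 and 0.032 ± 0.034 (edgeR adjusted p = 0.000900 and 0.474). Lanosterol synthase (Lss) followed Sqle, higher with Dnmt3a at 0.22 ± 0.039 and not called with shDnmt3a at −0.026 ± 0.037. Exons of Fdft1 overlap Ctsb, and those of Lss overlap 4930483K19Rik, on the other strand.

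From lanosterol on, 8 of 9 enzymes were higher with Dnmt3a, while shDnmt3a lowered 3 and raised 1. Lathosterol oxidase (Sc5d) makes the next to last sterol. Sc5d had 350, 358 and 351 CPM in Dnmt3a libraries and 262, 294 and 275 CPM in GFP libraries. It had 180, 193 and 188 CPM in shDnmt3a libraries and 275, 262 and 262 CPM in shScr libraries. Neither pair of groups overlapped, and Sc5d had the largest change of any synthesis enzyme with Dnmt3a, 0.35 ± 0.041, and their largest decrease with shDnmt3a, −0.50 ± 0.038 (edgeR adjusted p = 2.61e-08 and 1.71e-09). The lanosterol demethylase Cyp51, at the head of the segment, had 217, 221 and 210 CPM in Dnmt3a libraries and 176, 179 and 175 CPM in GFP libraries. It had 133, 136 and 140 CPM in shDnmt3a libraries and 185, 172 and 186 CPM in shScr libraries. Cyp51 likewise showed no overlap, at 0.29 ± 0.039 and −0.40 ± 0.038 (edgeR adjusted p = 4.69e-07 and 5.70e-08). The sterol isomerase Ebp had 58.8, 55.5 and 58.4 CPM in Dnmt3a libraries and 46.6, 50.9 and 50.6 CPM in GFP libraries. It had 47.5, 49.7 and 50.8 CPM in shDnmt3a libraries and 59.1, 50.9 and 55.0 CPM in shScr libraries, which came within 1 CPM of each other. Its log2 fold changes were 0.22 ± 0.048 and −0.15 ± 0.052 (edgeR adjusted p = 0.000421 and 0.0249).

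Tm7sf2 and Lbr encode sterol C14 reductases, of which Lbr is also a protein of the inner nuclear membrane, and of the pair Lbr alone was called on knock-down. Lbr had 65.6, 65.1 and 64.4 CPM in Dnmt3a libraries and 55.1, 58.6 and 59.1 CPM in GFP libraries. It had 53.4, 52.6 and 53.4 CPM in shDnmt3a libraries and 36.6, 37.5 and 36.2 CPM in shScr libraries. Lbr was thus higher in both comparisons, at 0.17 ± 0.044 and 0.54 ± 0.045 (edgeR adjusted p = 0.00264 and 9.22e-09), and its shScr level stood far below its GFP level. Tm7sf2 had 75.1, 75.9 and 74.5 CPM in Dnmt3a libraries and 64.3, 64.8 and 66.1 CPM in GFP libraries. With the hairpins Tm7sf2 had 68.6, 68.7 and 70.0 CPM in shDnmt3a libraries and 69.9, 72.2 and 76.7 CPM in shScr libraries, which overlapped. The log2 fold changes of Tm7sf2 were 0.21 ± 0.041 and −0.070 ± 0.042 (edgeR adjusted p = 0.000206 and 0.195); its exons overlap 1110014N23Rik on the same strand. Among the other enzymes of the segment, the C4 demethylating oxidase Sc4mol, the dehydrogenase Nsdhl and the last enzyme of the Kandutsch-Russell branch, Dhcr7, were higher with Dnmt3a, at 0.29, 0.19 and 0.12, and not called with shDnmt3a, at −0.071 ± 0.040, 0.030 ± 0.038 and 0.044 ± 0.049. The ketoreductase Hsd17b7 was called in neither, and with shDnmt3a stood at 0.068 ± 0.043. The call of Dhcr7 with Dnmt3a ended without GFP replicate 1 or 3 or Dnmt3a replicate 1 or 3 (edgeR adjusted p = 0.0668 to 0.220) and in the fit of all 12 libraries (0.0533), and that of Ebp with shDnmt3a without shScr replicate 1 or 3 or shDnmt3a replicate 1 or 2 (0.0570 to 0.127); without shScr replicate 1, Hsd17b7 was called higher (0.0474).

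**Figure D3:**
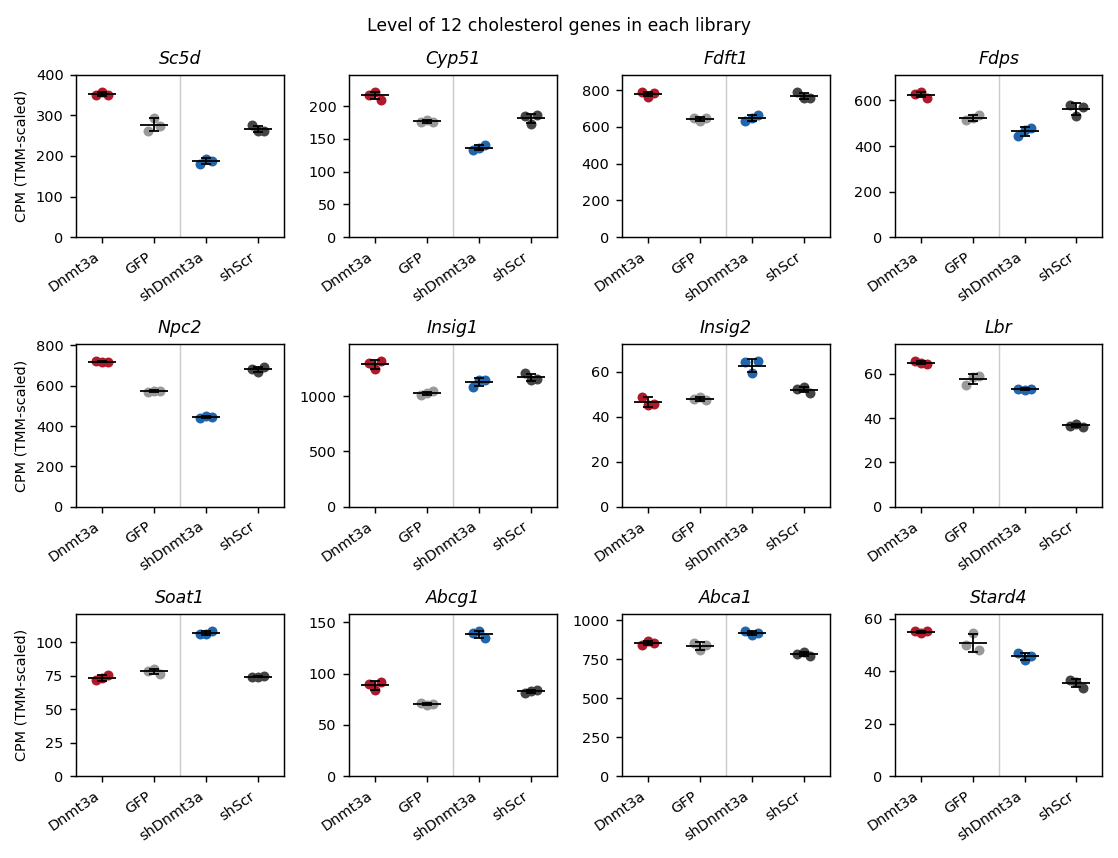
CPM of 12 members in each library, with Dnmt3a left of GFP and shDnmt3a left of shScr. Points are libraries, and the black mark and bar give the mean ± SD of 3. Sc5d, Cyp51, Fdft1, Fdps and Npc2 are above GFP with Dnmt3a and below shScr with shDnmt3a, while Lbr and Abcg1 are above their control both times.

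The regulators of SREBP-2 did not move as a group. Srebf2 itself had 125, 122 and 128 CPM in Dnmt3a libraries and 124, 115 and 119 CPM in GFP libraries. It had 112, 106 and 98.1 CPM in shDnmt3a libraries and 99.3, 109 and 113 CPM in shScr libraries. Both pairs overlapped, and the log2 fold changes of 0.062 ± 0.040 and −0.016 ± 0.050 were not called (edgeR adjusted p = 0.275 and 0.827). Scap, the escort, had 63.7, 62.4 and 54.9 CPM in Dnmt3a libraries and 68.5, 64.5 and 68.7 CPM in GFP libraries. It had 57.1, 58.4 and 57.6 CPM in shDnmt3a libraries and 61.2, 69.2 and 68.4 CPM in shScr libraries. Scap was lower in both comparisons, the only member to be so, at −0.16 ± 0.049 and −0.19 ± 0.048 (edgeR adjusted p = 0.0119 and 0.00271). Without GFP replicate 3 or Dnmt3a replicate 3 the first of these was no longer called (edgeR adjusted p = 0.0651 and 0.188), and exons of Scap overlap 5830462I19Rik on the other strand.

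Insig1 and Insig2 retain Scap in the endoplasmic reticulum, Insig1 being itself a target of SREBP-2, and each was called in 1 comparison. Insig1 had 1304, 1245 and 1315 CPM in Dnmt3a libraries and 1016, 1025 and 1044 CPM in GFP libraries. It had 1088, 1148 and 1147 CPM in shDnmt3a libraries and 1209, 1143 and 1158 CPM in shScr libraries. Dnmt3a libraries stood well above GFP and the hairpin groups overlapped, with log2 fold changes of 0.32 ± 0.035 and −0.047 ± 0.034 (edgeR adjusted p = 5.53e-09 and 0.280). Insig2 had 48.9, 45.1 and 45.8 CPM in Dnmt3a libraries and 47.9, 48.9 and 47.3 CPM in GFP libraries. It had 64.3, 59.3 and 64.6 CPM in shDnmt3a libraries and 52.3, 53.3 and 50.8 CPM in shScr libraries. Insig2 was thus higher with shDnmt3a and overlapped with Dnmt3a, at 0.27 ± 0.046 and −0.047 ± 0.048 (edgeR adjusted p = 6.86e-05 and 0.512). The difference of the effects, knock-down minus overexpression, was itself called for both genes. It was negative for Insig1 at −0.38 ± 0.048 and positive for Insig2 at 0.31 ± 0.065 (edgeR adjusted p = 1.85e-07 and 0.000292).

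The lysosomal pair Npc1 and Npc2, which hand cholesterol from the lysosomal lumen to its membrane, were called in opposite directions on knock-down. Npc2, the soluble carrier, had 720, 720 and 718 CPM in Dnmt3a libraries and 569, 576 and 575 CPM in GFP libraries. It had 438, 448 and 444 CPM in shDnmt3a libraries and 683, 667 and 693 CPM in shScr libraries. With little spread inside each group, Npc2 was higher with Dnmt3a at 0.32 ± 0.035 and lower with shDnmt3a at −0.61 ± 0.032, the largest decrease of any member (edgeR adjusted p = 5.63e-09 and 7.83e-12). Its membrane partner Npc1 was not called with Dnmt3a, at 0.088 ± 0.041, and was higher with shDnmt3a at 0.16 ± 0.036 (edgeR adjusted p = 0.00106); exons of Npc1 overlap 2 genes on the other strand. Of the START domain proteins that move cholesterol between membranes, Stard4 averaged 45.7 ± 1.45 CPM in shDnmt3a libraries and 35.5 ± 1.62 CPM in shScr libraries (mean ± SD, n = 3 each), higher at 0.37 ± 0.051 (edgeR adjusted p = 5.88e-06). With Dnmt3a Stard4 was at 0.11 ± 0.048 and not called, though it was without GFP replicate 2 (edgeR adjusted p = 0.00833). Stard3, of late endosomes, was called in neither, at 0.0040 ± 0.060 and 0.12 ± 0.059.

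Mylip, the ubiquitin ligase that marks lipoprotein receptors for breakdown and is switched on by LXR, was slightly higher in both comparisons. It had 101, 97.2 and 97.0 CPM in Dnmt3a libraries and 91.5, 89.2 and 92.7 CPM in GFP libraries. It had 150, 151 and 159 CPM in shDnmt3a libraries and 145, 140 and 148 CPM in shScr libraries. The step between the vector pairs was much larger than either change, which came to 0.11 ± 0.040 and 0.093 ± 0.037 (edgeR adjusted p = 0.0358 and 0.0490). Both calls were weak: the first was lost on leaving out any 1 library except Dnmt3a replicate 3 (edgeR adjusted p = 0.0562 to 0.179), the second on leaving out any except shScr replicate 3 (0.0507 to 0.243). The second was also lost with RLE size factors, no filter, the exact test of edgeR and the fit of all 12 libraries (edgeR adjusted p = 0.0545, 0.0698, 0.0599 and 0.0584), and with DESeq2 (0.0687).

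Soat1, the enzyme of the endoplasmic reticulum that esterifies cholesterol for storage, was higher with shDnmt3a. It had 106, 106 and 109 CPM in shDnmt3a libraries and 74.1, 74.2 and 75.2 CPM in shScr libraries. In the other comparison it had 71.7, 73.2 and 75.8 CPM in Dnmt3a libraries and 78.8, 80.3 and 76.6 CPM in GFP libraries. The hairpin groups were wide apart, at 0.53 ± 0.037, and the overexpression groups close but without overlap, at −0.10 ± 0.042 and not called (edgeR adjusted p = 5.36e-10 and 0.0822).

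The efflux transporters were both higher with shDnmt3a. Abcg1, which passes cholesterol to HDL, had 139, 142 and 135 CPM in shDnmt3a libraries and 80.9, 83.5 and 83.7 CPM in shScr libraries. It had 89.6, 83.7 and 92.4 CPM in Dnmt3a libraries and 71.4, 69.6 and 70.3 CPM in GFP libraries. Abcg1 was the member with the largest change on knock-down, 0.75 ± 0.037, and it was higher with Dnmt3a too, at 0.33 ± 0.042 (edgeR adjusted p = 3.00e-12 and 1.60e-07). Abca1, which loads cholesterol onto apolipoprotein A-I, had 931, 905 and 920 CPM in shDnmt3a libraries and 786, 798 and 772 CPM in shScr libraries. With the other vectors Abca1 had 839, 865 and 852 CPM in Dnmt3a libraries and 856, 808 and 844 CPM in GFP libraries, which overlapped. Its change was 0.23 ± 0.031 with shDnmt3a and 0.025 ± 0.036 with Dnmt3a (edgeR adjusted p = 4.46e-06 and 0.651). Apoe, at a mean of 2.93 RPKM the least expressed member tested, was not called at −0.089 ± 0.13 and −0.29 ± 0.13, with wider standard errors than any other member; without shScr replicate 2 it was called lower with shDnmt3a (edgeR adjusted p = 0.0292).

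Set against each other, the comparisons share no library. Of the 32 members 9 were higher with Dnmt3a and lower with shDnmt3a: Mvk, Pmvk, Mvd, Fdps, Fdft1, Cyp51, Ebp, Sc5d and Npc2. That pattern was found in 6.03% of the 13893 genes tested in both. No member showed the reverse (3.63% of genes), 3 were higher in both (Lbr, Mylip and Abcg1, 3.64% of genes) and Scap was lower in both (3.1%). A further 9 were higher only with Dnmt3a, 5 only with shDnmt3a, and 5 were called in neither. Genes of at least 20 mean CPM were called more often in each comparison. For them the shares of these joint patterns, and of the difference that follows, were not computed. Whether knock-down and overexpression acted differently was tested as the difference of the 2 log2 fold changes in 1 fit of all 12 libraries. The difference, knock-down minus overexpression, was called for 23 of 32 members, against 40.3% of genes (20.4% lower, 19.9% higher). It was negative for 17, 15 of them synthesis enzymes, and positive for 6. A negative difference does not by itself mean a fall on knock-down. Sqle and Nsdhl, among the 15, stood at 0.032 and 0.030 with shDnmt3a. The difference ran furthest for Npc2 at −0.95 ± 0.045, Sc5d at −0.86 ± 0.057 and Cyp51 at −0.70 ± 0.054 in 1 direction. In the other it ran furthest for Soat1 at 0.62 ± 0.053, Abcg1 at 0.41 ± 0.055 and Lbr at 0.35 ± 0.060. For Abcg1 and Lbr, higher in both, the log2 fold change over the matching control was thus larger with shDnmt3a (edgeR adjusted p = 5.20e-07 and 2.11e-05). Those controls were unlike. Lbr averaged 36.8 CPM in shScr libraries and 57.6 CPM in GFP libraries, and Abcg1 averaged 82.7 and 70.4 CPM. For Scap and Mylip, which changed the same way in both, the difference was −0.041 ± 0.073 and −0.025 ± 0.053 and not called, which does not show that the effects were equal. The 9 synthesis enzymes not called with shDnmt3a included 7 whose difference was called, among them Sc4mol at −0.37 ± 0.056, Tm7sf2 at −0.29 ± 0.057 and Acat2 at −0.27 ± 0.050. All 7 were already called higher with Dnmt3a, and the difference contains that change. Their difference thus does not show a response to knock-down. For Hsd17b7 and Dhcr7 the difference was not called, at −0.014 ± 0.063 and −0.080 ± 0.064.

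**Figure D4:**
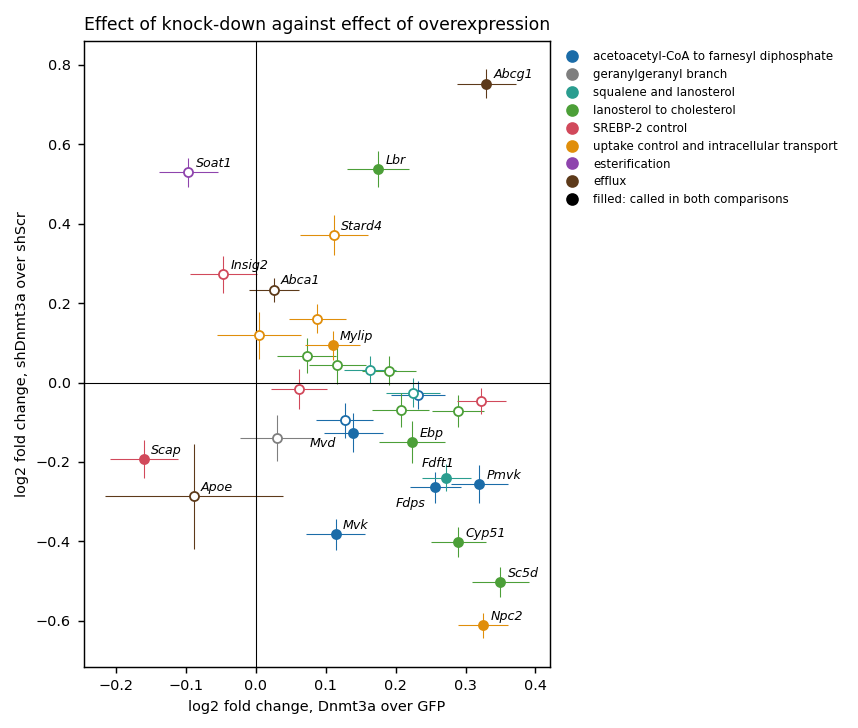
Log2 fold change for shDnmt3a over shScr against that for Dnmt3a over GFP, 32 members coloured by role, with standard errors; filled points are called in both comparisons. The 9 filled points at the lower right are 8 synthesis enzymes and Npc2. Of the other filled points, Abcg1, Lbr and Mylip lie at the upper right and Scap at the lower left.

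The control groups were themselves unlike for these genes, which bears on each baseline. With shScr over GFP, 20 of 32 members were called by edgeR, 10 higher and 10 lower, where 46.5% of 14491 genes were called, 23.7% higher and 22.8% lower. The control groups did not overlap for 22 members, against 51.8% of genes. The widest gaps were Mylip at 0.66 ± 0.038, Lbr at −0.65 ± 0.043 and Stard4 at −0.52 ± 0.051. Of the 9 genes that moved in opposite directions under the manipulations, 5 differed between the controls. Fdft1, Npc2, Ebp and Fdps were higher in shScr, at 0.25 ± 0.033, 0.25 ± 0.031, 0.16 ± 0.051 and 0.10 ± 0.038, and Mvd was lower, at −0.18 ± 0.047, while Sc5d, Cyp51, Mvk and Pmvk were not called, at −0.054 ± 0.040, 0.035 ± 0.038, 0.037 ± 0.041 and 0.031 ± 0.045. The summed level of the synthesis enzymes was 4280 ± 120 CPM in shScr libraries and 4222 ± 67.4 CPM in GFP libraries. Vector, insert and any difference between the experiments cannot be told apart here, so no member is ranked between the overexpression and the hairpin libraries.

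Of 27 other genes of sterol metabolism, those called on knock-down were mostly higher. Of 24 tested with Dnmt3a 7 were higher and 4 lower, and of 23 tested with shDnmt3a 13 were higher and 4 lower (14.3% and 12.9%, and 23.3% and 22.5%, of all genes). Among those with the smallest p with Dnmt3a were the phospholipid transfer protein Pltp at 0.34 ± 0.037, the lysophospholipid acyltransferase Lpcat3 at 0.21 ± 0.038 and the lysosomal acid lipase Lipa at 0.19 ± 0.038. With shDnmt3a they included Erlin2, which takes part in protein degradation at the endoplasmic reticulum, at 0.75 ± 0.035, the HDL receptor Scarb1 at 0.60 ± 0.039 and Tmem97, a sterol-regulated membrane protein, at 0.59 ± 0.042.

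Genes of fatty acid and triglyceride synthesis, partly under SREBP-1, gave a comparison with a neighbouring pathway. Of the 19 measured 9 were higher with Dnmt3a and 10 not called, where 14.3% of all genes were higher and 12.9% lower, with a median of 0.10, against 0.22 for the cholesterol synthesis enzymes. With shDnmt3a 7 were higher and 8 lower, where 23.3% of all genes were higher and 22.5% lower, with a median of −0.014, against −0.083. The smallest p with Dnmt3a were those of the acyltransferase Agpat2 at 0.34 ± 0.035, Thrsp at 0.38 ± 0.040, the acetyl-CoA synthetase Acss2 at 0.32 ± 0.038 and Dgat1, the triglyceride-forming acyltransferase, at 0.25 ± 0.038. With shDnmt3a they were those of Agpat2 at −0.85 ± 0.033, the elongase Elovl6 at −1.16 ± 0.056, the mitochondrial acetyl-CoA carboxylase Acacb at −0.88 ± 0.044 and Thrsp at −0.71 ± 0.037. The lists were not tested against each other.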

How the data were processed

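Total RNA (100 ng per library) had been depleted of rRNA with Ribo-Zero Gold, made into TruSeq RNA v2 libraries and sequenced on a HiSeq2500. Per the labels and the study's methods, reads were processed with bcl2fastq 2.17.1.14, TopHat2 2.0.14 against mm9, Picard 2.2.4 and SAMtools 0.1.19, and featureCounts 1.4.6 gave the authors' read totals per transcript, on mm9 gene models edited to overlap less; the strand setting is not stated. Reads of the TruSeq v2 kit carry no strand, so a gene and an antisense partner cannot be told apart. The deposited table holds raw counts for 27473 features in 12 libraries, of which 7094 are at 0 throughout; no column was left without a sample.

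Counts were tested with edgeR 4.0.16 and limma 3.58.1 in R 4.3.3: filterByExpr (minimum count 10), TMM scaling, the quasi-likelihood test, one fit per comparison, and Benjamini-Hochberg adjustment over all genes tested. The difference of the effects and shScr over GFP came from 1 fit of all 12 libraries. CPM were TMM-scaled over all 12 libraries and RPKM used the feature length in the file. Standard errors are the log2 fold change divided by the square root of F. Depth was 29084732 to 47341091 counts per library, and the common biological coefficient of variation was 3.98% for Dnmt3a over GFP and 4.03% for shDnmt3a over shScr.

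The settings varied were the scaling (RLE), the tool (DESeq2 1.42.0, or the exact test of edgeR), the low-count filter (none, or 1 CPM in at least 3 libraries), the libraries fitted together (all 12), a block by replicate number, the features (summed per symbol), the threshold (adjusted p under 0.01) and each library, left out in turn. Tested on simulated data with known changes, the procedure recovered 60% of genes changed by 0.3 log2 for Dnmt3a over GFP (50 changed genes, 14036 genes in all) and 67.3% for shDnmt3a over shScr (49 changed genes, 13978 genes in all), and 3.05% and 3.73% of calls were false. Over all sizes of change, far fewer genes were changed in the simulation than were called in the real data. Recovery depends on that share through the adjustment of p, so it may differ in the real data. Changes of 0.2 log2 were recovered for 34.7% and 30.6% of genes (59.3% and 60% of those of at least 20 CPM), and changes of 1 log2 for 86% and 91.8%, low-count genes being missed; the pass mark of this test was moved to genes of at least 20 CPM after a first run fell short of it, with no change to the fit. For the contrasts of the 12-library fit, false calls were 6.8% for the difference of the effects and 6.77% for shScr over GFP, both above the nominal 5%.

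All members may be named. Values per library are given for members called in both comparisons, for the 4 smallest p and 4 largest fold changes in each, for the pairs Insig1 and Insig2, Tm7sf2 and Lbr, and Abca1 and Abcg1, and for Sqle and Srebf2; of the 2 comparison lists genes are named from the 4 smallest p in each comparison, and some of these are not reported here. The members, lists and motifs were chosen with earlier results of these data known. Exon overlaps come from GENCODE M1 on NCBIM37 (mm9), promoters from RefSeq (GRCm38.p6), with no coordinates carried between builds. The labels give 2 days of virus contact and the study's methods a shorter time. Protein sequences were not used here.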

Additional observations from a re-analysis of the deposited data

How the results depend on the processing

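The counts of members and synthesis enzymes stayed the same or within 1.5 times their size under RLE size factors, DESeq2, no filter, 1 CPM in 3 libraries and summed features. They did so too under the exact test and the fit of all 12 libraries where these were run. In these settings the members' median log2 fold changes moved by less than the median standard error of the members. For shDnmt3a over shScr that bound is close to the size of the median itself, so it does not settle the sign. Replicate numbers do not pair the samples: same-numbered libraries correlated at −0.01, 0.0076 and −0.013 for Dnmt3a and GFP and at −0.19, −0.022 and −0.068 for shDnmt3a and shScr. With the replicate block 22 members were called for Dnmt3a over GFP, as without it, and 16 rather than 18 for shDnmt3a over shScr, Mvd and Mylip being lost (adjusted p = 0.0537 and 0.0855 in edgeR); with the block 23 were called for the difference and 20 for shScr over GFP, and no library correlated best with the one of its own number. At an adjusted p under 0.01, 16 members were higher and 0 lower with Dnmt3a (Scap, at 0.0119, was lost), and synthesis enzymes higher in shScr over GFP came to 2 rather than 4. Leaving out 1 library gave 16 to 20 members higher with Dnmt3a against 21 with all libraries, the fewest without Dnmt3a replicate 1, and 0 to 1 lower, 0 without GFP replicate 3 or Dnmt3a replicate 3. It gave 15 to 18 members called with shDnmt3a, 1 to 2 synthesis enzymes higher with shDnmt3a (2 without shScr replicate 1, which adds Hsd17b7) and 2 to 4 higher in shScr over GFP (2 without GFP replicate 1 or shScr replicate 1). Fewer libraries were tested in each of these. Only members near 0 and not called changed sign: Stard3 with Dnmt3a at −0.0021 under 1 CPM in 3 libraries and, over the libraries left out, between −0.047 (without Dnmt3a replicate 1) and 0.045, negative also without GFP replicate 1; Ggps1 with Dnmt3a between −0.014 (without GFP replicate 1) and 0.065; and Srebf2 with shDnmt3a between −0.070 and 0.032 (without shDnmt3a replicate 3), positive also without shScr replicate 3. Limits: changes of 0.1 to 0.2 on the log2 scale are near what 3 libraries a group can show, RNA levels say nothing of enzyme activity or cholesterol content, and Hmgcs1 could not be measured.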
